A study of Mus musculus with 6 samples.

Results

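The Skint genes encode membrane proteins made chiefly by keratinocytes, and 9 of them are described here in mouse back skin treated with a bacterial protease and house dust mite extract. The members are Skint1, Skint3, Skint4, Skint5, Skint6, Skint7, Skint9, Skint10 and Skint11, taken by gene symbol from a deposited table of 17564 genes. The table also holds Skint2 and Skint8, which are given beside the members so that all 11 Skint genes can be read together. All 9 members passed the filter on low values. They were chosen by their scaled reads and fold changes in treated and untreated skin, the contrast described here, so their differences between the groups are a description and carry no test. Treated skin came from wild-type C57BL/6 mice of 8 weeks whose shaved and depilated backs received 3 µg SspA, the V8 protease of Staphylococcus aureus, and 10 µg house dust mite extract (HDM), again after 3 days, with collection 7 days after the start (3 samples). Untreated skin of the same strain and age was shaved and depilated and received neither agent (3 samples), and its day of collection is not given. Whole skin was sequenced in bulk, so fewer cells of a type and less RNA per cell cannot be told apart. No label ties a sample to its own mouse, so errors and p-values reflect the spread over these libraries only, and that spread may be technical.

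Skint proteins have immunoglobulin-like domains outside the cell and several membrane-spanning segments, and they are related to the butyrophilins. Skint1, in thymic epithelium and skin, is needed for the selection of the Vγ5Vδ1 dendritic epidermal T cells, the gamma-delta T cells that live between mouse keratinocytes. These T cells watch keratinocytes for stress and release growth factors and cytokines after wounding. Skint3 and Skint9 have been tied to the activation of these cells at wound edges in mice. The roles of most other members are less well known.

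Values are scaled reads, that is, read counts that the authors divided by 1 factor per library to reach a common total of 6339993 to 6340285. The reads behind them, recovered from the steps between values, numbered 5606959, 5821622 and 7545567 in treated replicates 1, 2 and 3, and 5770072, 4928245 and 5580401 in untreated replicates 1, 2 and 3. The deepest library was therefore treated and the shallowest untreated. Basal keratinocyte markers summed to between 9222 and 11943 scaled reads in treated and between 11238 and 11920 in untreated libraries, and suprabasal markers to between 7638 and 8736 in treated and between 9107 and 9705 in untreated libraries. Of those 12 keratinocyte markers, all of them detected in every library, 7 exceeded 0.5 reads per base of transcript in a library, and no gene of the table exceeded 0.923. It is not stated if several reads starting at 1 base counted as 1, and sums of such dense genes may understate differences. Among the members the highest density was 0.318 reads per base, for Skint3. Neutrophil markers summed to 2785, 2253 and 1013 scaled reads in treated replicates 1, 2 and 3, against 295 to 427 in untreated libraries, and inner root sheath markers to 1427, 641 and 3282 in treated replicates 1, 2 and 3, against 109 to 162 in untreated libraries. Treated replicate 3 was thus the lowest treated library for neutrophil and the highest for inner root sheath markers.

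The 11 genes form an unbroken run of 2.33 Mb on chromosome 4 (mm10, chr4:111919555-114245028), with no other gene of the table between them. From low to high coordinate they lie in the order Skint8, Skint7, Skint1, Skint4, Skint3, Skint9, Skint2, Skint10, Skint6, Skint5 and Skint11, with 7 genes on the plus strand and Skint9, Skint10, Skint6 and Skint5 on the minus strand. Skint6 (chr4:112804616-113286973) and Skint5 (chr4:113477891-113999503) are the largest, with 49 and 59 exons in the GENCODE M21 transcripts matched by RefSeq ID, while the other 9 genes have 7 to 11 exons. Reads can be shared between close relatives. Of all stretches of 50 bases in the Skint5 transcript, 3.93% also occur in Skint6, and 4.64% of those of Skint6 occur in Skint5. For Skint7 the share was 18.7%, all with Skint8, and for Skint3 it was 0.501%, with Skint2. Skint1, Skint4, Skint9, Skint10 and Skint11 shared no such stretch with another Skint gene. Values of Skint7 and Skint8 are thus the most open to read sharing.

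The promoters fell into sets of like sequence, shown to set likeness of sequence beside the members' differences between the groups. RefSeq windows (GRCm38.p6, 250 bases before to 50 bases after the start site) were found for all 11 genes at the start used by the deposited table. Skint6 and Skint5 had the closest pair, with the same base at 269 of 300 positions (89.7%). Skint10 and Skint11 had 210 identical bases in their best local alignment (70% of the window), and Skint9 had 138 with Skint10 (46%). Within a set of Skint5, Skint6, Skint2 and Skint3 the share was 33.7% to 89.7%, within Skint9, Skint10 and Skint11 it was 31% to 70%, and between Skint7 and Skint8 it was 37.3%, whereas all other pairs reached 27.3% at most. Capitals below mark matches, on either strand, to TATAAA, to the AP-1 motif TGANTCA or to the STAT motif TTCNNNGAA. Printed first are windows of a set in which Skint5 and Skint6 had lower means in treated skin and Skint3 did not. Skint2, of the same set but not printed, had a higher mean in treated skin (119 against 99.5 scaled reads).
Skint5, chr4:113999454-113999753, minus strand: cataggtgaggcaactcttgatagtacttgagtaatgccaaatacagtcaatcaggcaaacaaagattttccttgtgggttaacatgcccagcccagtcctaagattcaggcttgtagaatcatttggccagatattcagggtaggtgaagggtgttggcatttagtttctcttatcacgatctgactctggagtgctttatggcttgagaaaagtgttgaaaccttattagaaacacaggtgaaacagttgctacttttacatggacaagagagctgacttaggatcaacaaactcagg
Skint6, chr4:113286924-113287223, minus strand: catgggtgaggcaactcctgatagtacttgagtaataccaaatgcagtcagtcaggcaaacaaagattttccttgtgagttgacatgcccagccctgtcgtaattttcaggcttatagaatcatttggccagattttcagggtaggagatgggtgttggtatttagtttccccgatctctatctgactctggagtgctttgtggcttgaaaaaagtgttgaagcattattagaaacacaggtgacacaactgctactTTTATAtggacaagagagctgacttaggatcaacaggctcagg
Skint3, chr4:112231995-112232294, plus strand: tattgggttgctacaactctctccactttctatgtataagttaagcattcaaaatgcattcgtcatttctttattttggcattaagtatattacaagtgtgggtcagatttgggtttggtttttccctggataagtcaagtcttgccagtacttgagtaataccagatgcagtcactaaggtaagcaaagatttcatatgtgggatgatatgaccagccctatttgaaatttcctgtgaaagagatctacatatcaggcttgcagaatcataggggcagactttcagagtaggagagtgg
Next come those of Skint9, Skint10 and Skint11, a set in which every gene had a lower mean in treated skin. In the set of Skint7 and Skint8, whose windows are not printed, Skint7 had a lower mean in treated skin (69.4 against 129 scaled reads). Skint8 hardly differed (87.6 against 89.3), and the groups overlapped for both.
Skint9, chr4:112433936-112434235, minus strand: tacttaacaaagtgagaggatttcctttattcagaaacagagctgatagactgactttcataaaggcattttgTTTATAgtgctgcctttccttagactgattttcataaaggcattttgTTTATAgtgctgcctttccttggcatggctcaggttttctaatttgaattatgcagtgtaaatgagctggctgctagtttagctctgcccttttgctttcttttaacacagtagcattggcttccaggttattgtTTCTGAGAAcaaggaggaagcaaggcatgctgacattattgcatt
Skint10, chr4:112774812-112775111, minus strand: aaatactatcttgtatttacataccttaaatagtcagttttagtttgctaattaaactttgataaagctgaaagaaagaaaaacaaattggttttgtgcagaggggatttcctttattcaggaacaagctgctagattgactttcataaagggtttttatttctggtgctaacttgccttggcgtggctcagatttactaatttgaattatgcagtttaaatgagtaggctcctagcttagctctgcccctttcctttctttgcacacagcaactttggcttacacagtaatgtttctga
Skint11, chr4:114163134-114163433, plus strand: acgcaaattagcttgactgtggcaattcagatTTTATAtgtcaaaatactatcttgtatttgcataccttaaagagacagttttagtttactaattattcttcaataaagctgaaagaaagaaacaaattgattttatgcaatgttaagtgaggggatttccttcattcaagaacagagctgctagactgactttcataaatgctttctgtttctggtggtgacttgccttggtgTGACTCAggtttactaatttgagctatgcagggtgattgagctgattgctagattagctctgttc

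Matches to TATAAA occurred in 7 of the 11 windows, while 13.6% of all 32851 RefSeq promoter windows hold it. In Skint6 it lies on the opposite strand, read as TTTATA, over bases 258 to 263 of the window, after the annotated start, and Skint5 lacks it through the substitution T262C (Skint6 base first, counted from 1 at the 5′ end of the window). TGANTCA was found in Skint11 alone of the 11 (7.81% of all windows), and TTCNNNGAA in Skint8 and Skint9 (8.3% of all windows). E-boxes (CANNTG) were found in 7 of the 11 (72.3% of all windows), the exceptions being Skint4, Skint9, Skint10 and Skint11, and none overlapped a match to another motif. Neither the Grainyhead motif AACCNGGTT (0.271% of all windows) nor the GATA motif AGATAA (11.2%) matched any of the 11. These are matches of letters, not shown binding sites. The plot of promoter identity sets each pair beside the fold changes of the genes.

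**Figure D1:**
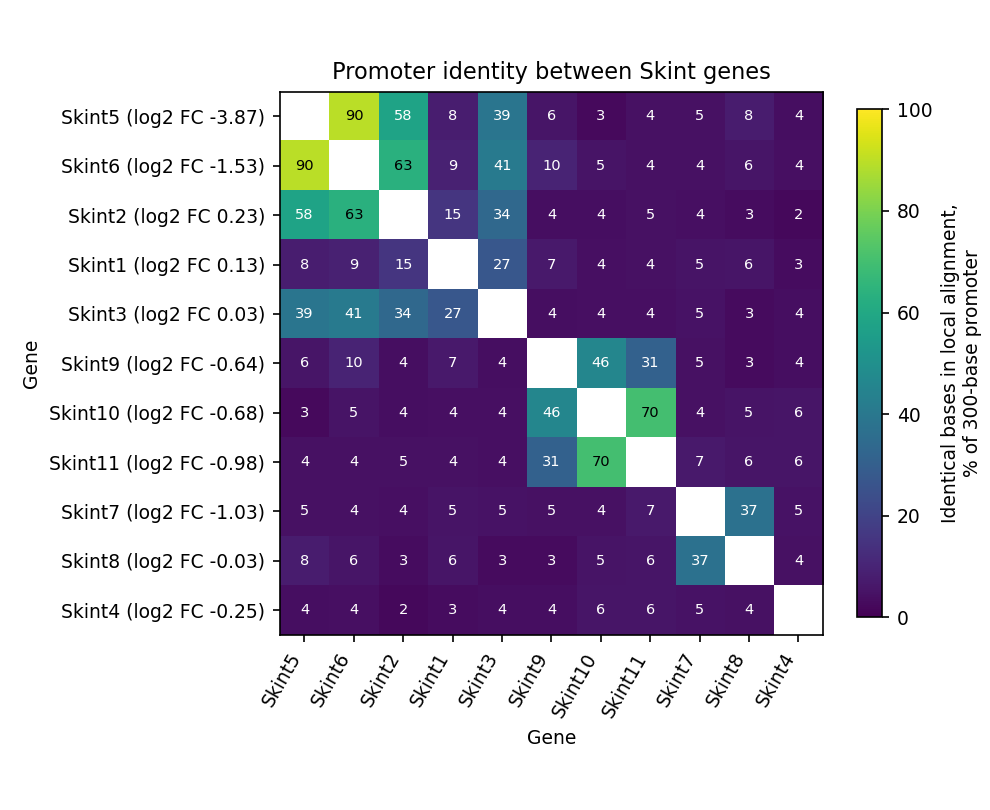
Promoter identity between the 11 Skint genes, as identical bases in the best local alignment of each pair in percent of the 300-base window, with each gene's log2 fold change (treated over untreated) beside its name. Skint5 and Skint6 reach 89.7% and Skint10 and Skint11 reach 70%.

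Levels differed among the members in both groups. Per kilobase of transcript, Skint3 and Skint1 had the highest means in treated skin, 239 ± 26.8 and 194 ± 50.1 scaled reads per kb (SD, n = 3), and Skint5 the lowest, 6.52 ± 8.47, a span of 36.7-fold over the 9 members. In untreated skin Skint9 and Skint3 led with 262 ± 39.6 and 236 ± 50.5 scaled reads per kb, and Skint5 was again lowest with 58.3 ± 22.5, a span of 4.49-fold. With all 11 genes ranked by mean, the values of neighbours in the order overlapped between libraries at every step in untreated skin. In treated skin they overlapped at every step but the last, where Skint6 (17.7 to 70.6 scaled reads per kb) lay above Skint5 (1.47 to 16.3). Between libraries, the coefficient of variation of the scaled reads ran from 11.2% for Skint3 to 130% for Skint5 in treated skin, and from 10.7% for Skint10 to 38.5% for Skint5 in untreated skin.

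In treated replicates 1 and 2, 6 of the 9 members lay below every untreated library, as did 21.8% of all genes tested, and Skint5 showed the widest gap. Skint5 had 7.92, 6.53 and 72.3 scaled reads in treated replicates 1, 2 and 3, against 374, 203 and 199 in untreated replicates 1, 2 and 3. The groups did not overlap, and treated replicates 1 and 2 rested on 7 and 6 reads. Its mean in treated skin was 11.2% of that in untreated skin. The log2 fold change was -3.87 ± 0.75 SE on log2(value + 1), the scale of fold changes here unless another method is named. Adding 1 draws low values together, and with 0.5 added the log2 fold change of Skint5 was -3.93. On recovered reads it was smaller in size, -3.09 by edgeR and -3.21 by DESeq2. Skint6, its neighbour, had 66.7, 73 and 266 scaled reads in treated replicates 1, 2 and 3, against 414, 256 and 301 in untreated replicates 1, 2 and 3. Treated replicate 3 lay inside the untreated range, so the groups overlapped, and the log2 fold change was -1.53 ± 0.46 SE.

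Skint11, at the far end of the cluster, had 69, 64.3 and 115 scaled reads in treated replicates 1, 2 and 3, against 197, 129 and 158 in untreated replicates 1, 2 and 3. Its groups did not overlap, and its log2 fold change was -0.98 ± 0.25 SE. Skint7 had 44.1, 45.7 and 118 scaled reads in treated replicates, against 157, 107 and 124 in untreated replicates, with a log2 fold change of -1.03 ± 0.36 SE. Here treated replicate 3 exceeded untreated replicate 2, so the groups overlapped. Skint8, the gene that shares most sequence with Skint7, had 82.5, 68.6 and 112 scaled reads in treated and 104, 66.9 and 96.6 in untreated replicates, and a log2 fold change of -0.03 ± 0.24 SE.

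Skint10 had 127, 124 and 219 scaled reads in treated replicates 1, 2 and 3, against 271, 220 and 239 in untreated replicates 1, 2 and 3. The groups were separated only by the small gap between 219 and 220, and the log2 fold change was -0.68 ± 0.22 SE. Skint9, a member tied to wound responses of epidermal T cells, had 181, 206 and 313 scaled reads in treated replicates, against 397, 296 and 379 in untreated replicates. Treated replicate 3 exceeded untreated replicate 2, and the log2 fold change was -0.64 ± 0.20 SE.

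For the 3 other members, treated replicates 1 and 2 did not both lie below every untreated library. Skint1, the member needed for selection of epidermal T cells, had 200, 212 and 314 scaled reads in treated replicates 1, 2 and 3, against 234, 190 and 227 in untreated replicates 1, 2 and 3 (log2 fold change 0.13 ± 0.18 SE). Skint3, the most abundant member by scaled reads, had 902, 818 and 1023 in treated and 1079, 696 and 936 in untreated replicates (0.03 ± 0.15 SE). Skint4 had 327, 340 and 565 scaled reads in treated and 560, 338 and 551 in untreated replicates (-0.25 ± 0.24 SE). For each of these members the ranges of the groups overlapped, as for Skint6, Skint7 and Skint9. Skint2, outside the members, had 88.2, 86 and 184 scaled reads in treated and 120, 60.5 and 118 in untreated replicates (0.23 ± 0.35 SE).

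**Figure D2:**
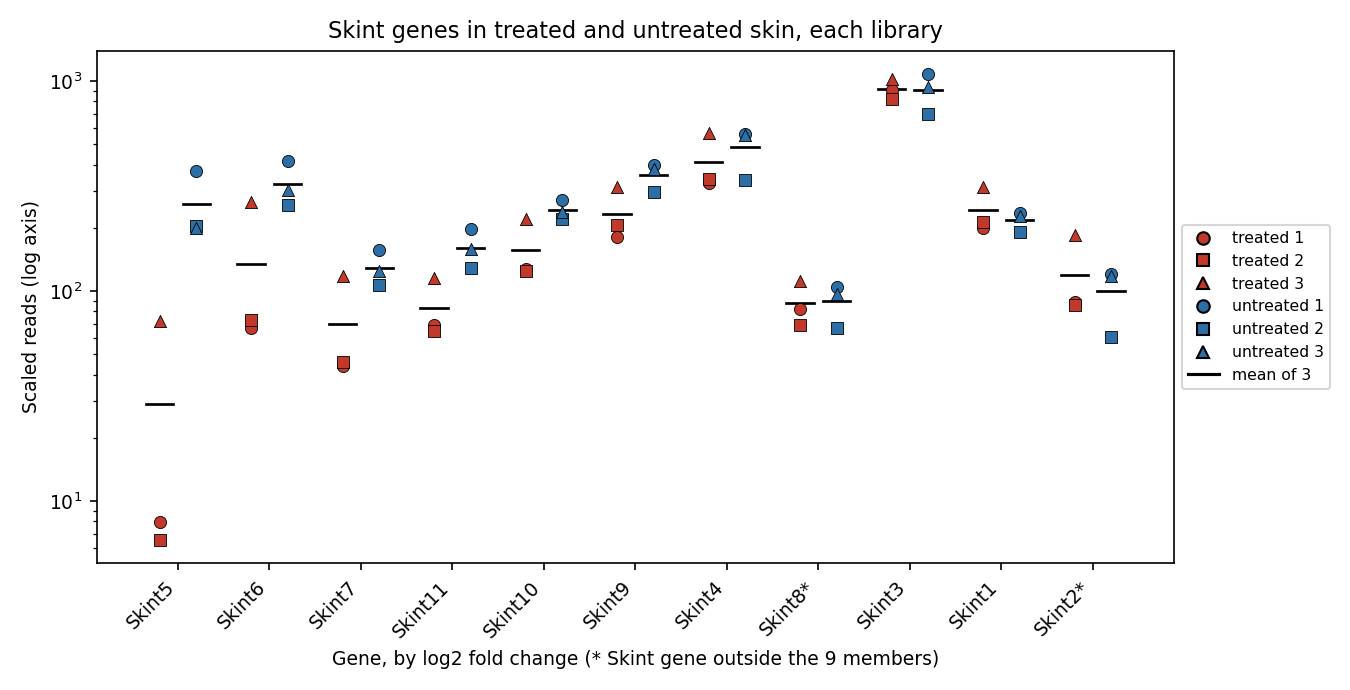
Scaled reads (log axis) of each Skint gene in the 3 treated and 3 untreated libraries, with the mean of each group as a bar and genes ordered by log2 fold change. Skint5 lies at 6.53 and 7.92 in treated replicates 2 and 1, while Skint3 lies between 696 and 1079 in all 6 libraries.

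The distance between treated replicate 3 and the other treated libraries ran through the family. It had the highest treated value for all 9 members, where the same held for 40.4% of all genes tested. Untreated replicate 2 had the lowest untreated value for 8 of the 9, against 40.5% of all genes tested. These were the deepest and the shallowest library. Treated replicates 1 and 2 averaged 4.92 log2 units below untreated skin for Skint5, and treated replicate 3 lay 1.76 units below it. Placed on the log2 scale from the untreated mean (0%) to the mean of treated replicates 1 and 2 (100%), treated replicate 3 stood at 35.8% for Skint5, 37.1% for Skint11, 20.3% for Skint9, 15.2% for Skint10, 11.6% for Skint6 and 7.16% for Skint7. Over the 1335 genes tested with all 6 libraries and called lower without that library, the median position was 62.9% (quartiles 35.6% and 91.5%). Neutrophil and inner root sheath markers also set treated replicate 3 apart, as given above, and the part of depth and of cell make-up in these values was not tested.

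Without treated replicate 3, log2 fold changes were -4.92 for Skint5, -2.17 for Skint6, -1.49 for Skint7, -1.24 for Skint11, -0.95 for Skint10 and -0.87 for Skint9. In the 4 libraries of like depth, without treated replicate 3 and untreated replicate 2, they were -5.06 for Skint5, -2.32 for Skint6, -1.61 for Skint7, -1.39 for Skint11 and -1.02 for Skint10, and Skint4 stood at -0.74, Skint3 at -0.23 and Skint1 at -0.16. The sign of Skint1 and Skint3 thus depended on the libraries kept. Skint3 was negative in 8 of the 18 alternatives, with all libraries kept at -0.01 with RLE scaling, -0.02 by edgeR, -0.02 by DESeq2 and -0.03 in the authors' deposited table. Skint5, Skint6, Skint7, Skint9, Skint10, Skint11 and Skint4 were negative in each of the 18 alternatives tried.

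Among the members, 2 of 9 passed adjusted p under 0.05 as lower by limma, namely Skint5 and Skint11, where 7.23% of all genes tested passed as lower. By limma, edgeR, DESeq2 and the authors' deposited table, 0 passed as higher, where 9.26% of all genes did by limma, and no member was higher at an unadjusted p under 0.05. Groups did not overlap, treated below untreated, for 3 members, against 15.6% of all genes tested, and for none with treated above (21.7% of all genes). Since the members were chosen with this contrast known, nothing is read from these counts. The count of members called lower was 6 without treated replicate 3, where 8.56% of genes were called lower, 7 in the 4 libraries of like depth (8.91%), and 1 (Skint5) without treated replicate 1 (3.97%), treated replicate 2 (3.37%), untreated replicate 1 (3.46%) or untreated replicate 3 (5.44%). It was 5 with RLE scaling (8.44%) or with the replicate number as a block (7.06%) and 4 with DESeq2 (8.6%). The authors' deposited table called 4 lower, adding Skint9 and Skint10, where 7.56% of its genes were called lower, and gives log2 fold changes of -3.21 for Skint5 and -1.31 for Skint6. The median log2 fold change of the 9 members was -0.68, against 0.03 over all genes tested.

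**Figure D3:**
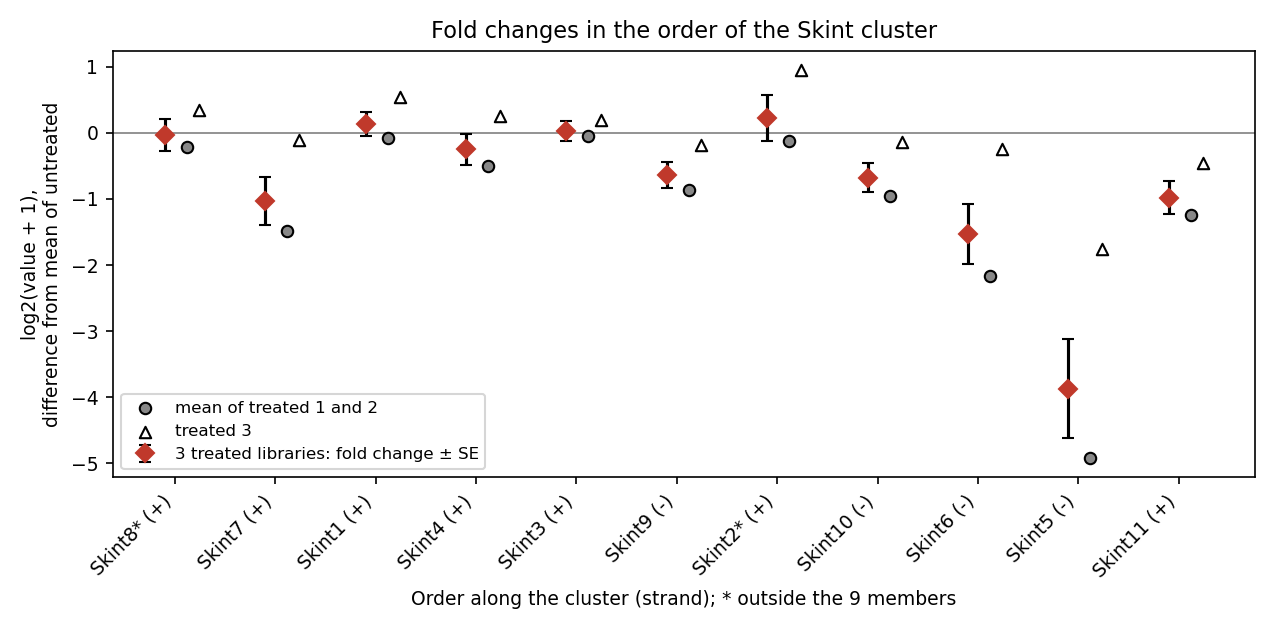
Log2 fold change with SE of the 11 Skint genes in their order along the cluster, with the mean of treated replicates 1 and 2 and the value of treated replicate 3 as differences from the untreated mean. The 4 genes at the high-coordinate end, Skint10, Skint6, Skint5 and Skint11, are negative, and Skint7 and Skint9 are negative between genes at -0.25 to 0.23.

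The make-up of the family restates the same values as sums and shares. Summed over the 9 members, scaled reads per kb were 784, 791 and 1271 in treated replicates 1, 2 and 3, against 1505, 1046 and 1308 in untreated replicates 1, 2 and 3, so the sums overlapped. As shares of all 11 Skint genes per kb, Skint3 made up 25.6%, 23.4% and 17.7% in treated replicates 1, 2 and 3, against 16.7%, 15.8% and 16.5% in untreated replicates. Skint1 made up 17.4%, 18.6% and 16.7% in treated and 11.1%, 13.3% and 12.3% in untreated replicates. Both shares were higher in every treated library, though neither gene's own level separated the groups. In parts of a fixed whole, a gene of steady level gains share where others are lower, so these shares add nothing to the fold changes. Skint5 made up 0.194%, 0.161% and 1.08% in treated and 5.01%, 4% and 3.03% in untreated replicates. Skint6 made up 1.92%, 2.12% and 4.69% in treated and 6.53%, 5.92% and 5.4% in untreated replicates.

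**Figure D4:**
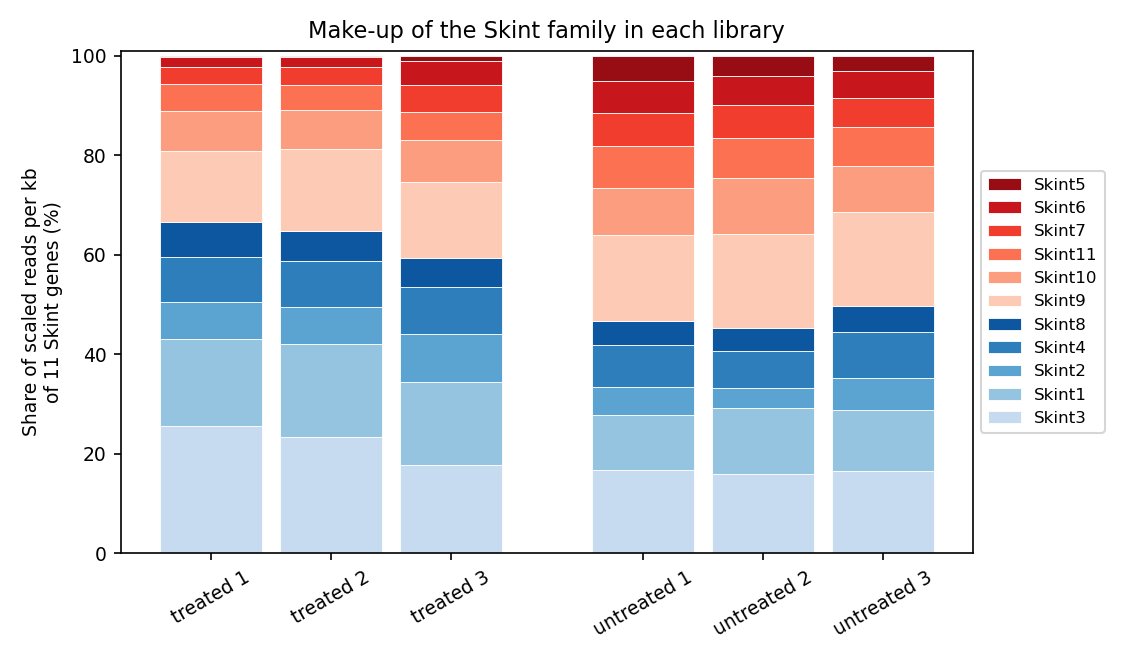
Share of each Skint gene in the summed scaled reads per kb of all 11, in percent, for each library. Skint5 holds at most 1.08% in treated libraries and at least 3.03% in untreated libraries. Blue marks Skint3, Skint1, Skint2, Skint4 and Skint8, with log2 fold changes of -0.25 to 0.23, and red marks the genes with lower ones. The colours were set by this same contrast, so a larger blue part in treated libraries is no separate result.

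The mean profile of the members, as centred log2 values, was -0.87, -0.87 and 0.28 in treated replicates 1, 2 and 3, and 0.77, 0.20 and 0.49 in untreated replicates 1, 2 and 3. Of 14331 other tested genes with at least 5 CPM in the higher group, Atp10b, a lipid flippase subunit, lay nearest, with a root mean square difference of 0.064 log2 units over the 6 libraries. Atp10b had 188, 175 and 384 scaled reads in treated replicates, against 579, 414 and 492 in untreated replicates. Next came Srcin1 (0.083), Col4a6, a basement membrane collagen chain (0.085), Tmprss11f, a membrane serine protease (0.122), Hsd17b14 (0.124) and Paqr8 (0.132). Among the members themselves Skint7 (0.085) and Skint11 (0.127) lay nearest their common mean and Skint5 farthest (1.604).

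Genes next to the cluster did not share 1 direction. Of the 10 genes within 1 Mb on either side, all tested, 3 rose and 1 fell by limma. Over all genes tested, 9.26% rose and 7.23% fell. On the low side Slc5a9, a sugar transporter (chr4:111875377-111902796), rose to 723 ± 99.6 scaled reads in treated skin, against 434 ± 75.9 in untreated skin (log2 fold change 0.74 ± 0.14 SE, adjusted p = 0.012), and Bend5 rose as well (1.14 ± 0.22 SE, adjusted p = 0.0112). On the high side the nearest gene, Trabd2b, a protease that acts on Wnt proteins (chr4:114406724-114615098), fell to 320 ± 47.7 scaled reads in treated skin, against 562 ± 61.7 in untreated skin (-0.82 ± 0.13 SE, adjusted p = 0.00556). Stil, a centriole gene of dividing cells, rose (0.81 ± 0.17 SE, adjusted p = 0.0141), but not without treated replicate 2 (adjusted p = 0.0527, with 0.00261 to 0.0527 over the alternatives).

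The T cells that Skint proteins are known for were followed through their own genes. Of the T cell receptor list, the CD3 chains were tested, and none of the 4 was called by limma (at most 1, higher, without untreated replicate 3), with a median log2 fold change of -0.06. At an unadjusted p under 0.05, 1 was higher and 1 lower, and edgeR, DESeq2 and the authors' deposited table called 0. Cd3e had 50.9, 44.6 and 55.5 scaled reads in treated and 70.3, 70.8 and 71.6 in untreated replicates (-0.49 ± 0.18 SE, adjusted p = 0.103), and Cd3d had 49.8, 58.8 and 54.6 in treated and 29.7, 18 and 42 in untreated replicates (0.92 ± 0.31 SE, adjusted p = 0.0747). Cd3g had 92.7, 75.2 and 96.6 in treated and 100, 104 and 102 in untreated replicates (-0.22 ± 0.16 SE, adjusted p = 0.404). Of the 4 chains, 2 (Cd3e and Cd3g) lay lower in treated skin without overlap, 1 (Cd3d) lay higher without overlap, and Cd247 overlapped. Among all genes tested, 15.6% lay lower and 21.7% higher without overlap, so nothing is read from these counts. Of the 26 genes of this list, only the 4 CD3 chains were found by symbol in the deposited table. The gamma and delta receptor segments could therefore not be followed, and CD3 chains are shared with other T cells. The 5 epidermal T cell markers measured summed to between 540 and 584 scaled reads in treated and between 373 and 556 in untreated libraries. These sums overlapped. Jaml, the co-stimulatory receptor of epidermal T cells, was then left out after its values were seen. Without Jaml the sums were 347, 328 and 430 in treated and 365, 309 and 425 in untreated replicates 1, 2 and 3, which also overlapped. Jaml itself had 210, 212 and 154 scaled reads in treated and 89, 64.3 and 131 in untreated replicates (1.06 ± 0.25 SE, adjusted p = 0.0249). Its call was lost without treated replicate 1 (0.0782), treated replicate 2 (0.0856), untreated replicate 1 (0.0738) or untreated replicate 2 (0.0597, with 0.00281 to 0.0856 over the alternatives).

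In the list of surface and effector genes of epidermal T cells, 8 of 20 tested rose (40%, against 9.26% of all genes) and 1 fell (5%, against 7.23%), with a median of 0.40. The count of rises was 3 without treated replicate 1, 1 without treated replicate 2, 3 without untreated replicate 1 and 4 without untreated replicate 2. Hcst, the signalling partner of the NKG2D receptor, rose (1.83 ± 0.35 SE, adjusted p = 0.011, and 0.052 without treated replicate 2, with 0.00882 to 0.052 over the alternatives). The granzyme genes Gzma (3.15 ± 0.63 SE, adjusted p = 0.0128) and Gzmb (1.79 ± 0.37 SE, adjusted p = 0.0144) rose too. Gzma had 21.5, 26.1 and 13.4 scaled reads in treated replicates, against 0, 1.29 and 4.54 in untreated replicates. Gzma was not called without treated replicate 2 (0.055, with 0.00464 to 0.055 over the alternatives), nor Gzmb without treated replicate 1 (0.0589) or 2 (0.0667, with 0.00471 to 0.0667 over the alternatives). The member that fell was Ccr4, a skin-homing receptor, with 65.1 ± 27.6 scaled reads in treated and 194 ± 35.3 in untreated skin (-1.62 ± 0.28 SE, adjusted p = 0.00793). Klrk1, which encodes NKG2D, overlapped between the groups (37.3, 62.1 and 72.3 scaled reads in treated and 53.8, 56.6 and 84.1 in untreated replicates). Many of these genes are also made by other T and NK cells, and neutrophil markers were higher in the same libraries, and the part of such cells was not tested.

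Transcription factors of these cells gave 2 rises (20%, against 9.26% of all genes) and 1 fall (10%, against 7.23%) among 10 tested (median -0.04). Sox13, a factor of gamma-delta T cell identity also made by other cells, had 441 ± 83 scaled reads in treated and 253 ± 55.1 in untreated skin (0.80 ± 0.18 SE, adjusted p = 0.018, with 6.90e-04 to 0.0662 over the alternatives). Without untreated replicate 1 (0.0662) or 2 (0.0592) the call of Sox13 was lost. Ikzf1, a lymphoid factor, rose (0.56 ± 0.15 SE, adjusted p = 0.0318) and Gata3 fell (-0.43 ± 0.11 SE, adjusted p = 0.0338). Both calls were lost without treated replicate 1 (0.0649 for Ikzf1 and 0.0864 for Gata3), treated replicate 2 (0.117 and 0.112), untreated replicate 1 (0.0839 and 0.115) or untreated replicate 2 (0.0944 and 0.0883), with 0.0213 to 0.117 for Ikzf1 and 0.00476 to 0.115 for Gata3 over the alternatives. The counts were thus 1 rise and no fall without treated replicate 1 or 2, and neither without untreated replicate 1 or 2.

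Listed ligands and survival factors of epidermal T cells that keratinocytes can make gave 3 rises among 13 tested by limma. This was 23.1%, against 9.26% of all genes, and limma called no fall (median 0.11). At an unadjusted p under 0.05, 0 were lower, and edgeR, DESeq2 and the authors' deposited table called 0 lower. The cells of whole skin that made these transcripts were not told apart. Tgfb1 rose (0.45 ± 0.10 SE, adjusted p = 0.0226), as did Icam1, an adhesion ligand (0.30 ± 0.09 SE, adjusted p = 0.0443), and Raet1e, an NKG2D ligand whose reads may be shared with its family (1.51 ± 0.42 SE, adjusted p = 0.0414). Tgfb1 was not called without treated replicate 1 (0.055) or 2 (0.0843) or untreated replicate 1 (0.0539) or 2 (0.0524, with 0.0197 to 0.0843 over the alternatives). Raet1e rested on 14, 12 and 23 reads in treated and 7, 2 and 5 in untreated replicates 1, 2 and 3. Raet1e was lost without any single library (0.0563 to 0.111, and 0.0362 to 0.164 over the alternatives), as well as by DESeq2 (0.16) and in the authors' deposited table (0.164). Icam1 was lost without any single library but treated replicate 3 (0.0756 to 0.164), with TMM (0.0771) or RLE scaling (0.0887), by edgeR (0.0798) and DESeq2 (0.185), in the authors' deposited table (0.207), with the replicate block (0.0754) and in the 4 libraries of like depth (0.0514), which makes 12 of 18 alternatives (0.0358 to 0.207 over all). Without treated replicate 1, treated replicate 2 or untreated replicate 2, limma called no rise in the list. Without treated replicate 3 it called Tgfb1 and Icam1, and without untreated replicate 3 Tgfb1 alone. Without untreated replicate 1 none of the 3 was called, and the 1 rise was Ulbp1, another NKG2D ligand (adjusted p = 0.0448, against 0.174 with all libraries and 0.0448 to 0.48 over the alternatives). Cxadr, the keratinocyte ligand of the co-stimulatory receptor JAML, had 1696 ± 87.2 scaled reads in treated and 1487 ± 142 in untreated skin (0.19 ± 0.09 SE, adjusted p = 0.167). H60c, an NKG2D ligand of skin, had 554 ± 79.7 in treated and 451 ± 22.1 in untreated skin (0.29 ± 0.11 SE, adjusted p = 0.117). Both were singled out after their values were seen. With no filter on low values, or with at least 1 CPM in 3 libraries, 7 genes of the list rose. Those added were Raet1a, Raet1b, Raet1c and Raet1d, relatives of Raet1e with overlapping coordinates, so the same few reads may count more than once. Raet1a and Raet1b each had 1, 2 and 0 reads in untreated replicates 1, 2 and 3. The authors' deposited table called Raet1d, but not Raet1a (0.0543), Raet1b (0.0765) or Raet1c (0.2).

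Factors that activated epidermal T cells can make, along with other cells, gave 5 rises (55.6%, against 9.26% of all genes) and no fall among 9 tested by limma (median 1.42), with 0 lower at an unadjusted p under 0.05 and 0 lower by edgeR, DESeq2 or the authors' deposited table. Areg, an EGF family growth factor, reached 165 ± 35.1 scaled reads in treated skin, against 50.5 ± 1.98 in untreated skin (1.67 ± 0.19 SE, adjusted p = 0.00173). The chemokine genes Ccl3 (4.35 ± 0.66 SE, adjusted p = 0.00531) and Ccl4 (5.04 ± 0.70 SE, adjusted p = 0.00427) rose to 32.8 scaled reads or more and 26.1 or more in every treated library, against 5.68 or less and 2.2 or less in untreated libraries. Tnf rose to 140, 61 and 57.1 scaled reads in treated replicates, against 22, 30.9 and 29.5 in untreated replicates (adjusted p = 0.0223), but not without untreated replicate 1 (0.0759, with 0.0016 to 0.0759 over the alternatives). Lif rose (0.85 ± 0.19 SE, adjusted p = 0.0207), but not without treated replicate 2 (0.0811), untreated replicate 1 (0.0723) or untreated replicate 2 (0.0587, with 0.02 to 0.0811 over the alternatives). The count was 3 without untreated replicate 1, and 8 in the authors' deposited table. The repair growth factor genes Fgf7 (0.02 ± 0.19 SE, adjusted p = 0.952), Fgf10 (-0.10 ± 0.19 SE, adjusted p = 0.766) and Igf1 (-0.02 ± 0.08 SE, adjusted p = 0.884) overlapped between the groups.

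The wider butyrophilin and B7 family, to which Skint proteins are related, gave 2 rises (20%, against 9.26% of all genes) and no fall among 10 tested by limma (median 0.07). Of its 20 symbols, only 11 were found in the deposited table. From the butyrophilin side Btnl9 and Ermap alone were tested, since Btnl2 did not pass the filter, and both rises were of B7 genes. Most butyrophilins could therefore not be followed. At an unadjusted p under 0.05, 1 was lower, and edgeR, DESeq2 and the authors' deposited table called 0 lower. A single fall was called by limma with the replicate block, in the 4 libraries of like depth and without treated replicate 3. Cd276, a B7 molecule, had 369 ± 2.14 scaled reads in treated and 180 ± 29.6 in untreated skin (1.05 ± 0.13 SE, adjusted p = 0.00307). Cd80, a co-stimulatory ligand of antigen-presenting cells, rose (1.16 ± 0.25 SE, adjusted p = 0.0181), but not without treated replicate 1 (0.0641), treated replicate 2 (0.071) or untreated replicate 2 (0.0512), with 0.00885 to 0.071 over the alternatives, and the count was then 1. Btnl9, a butyrophilin-like gene, had 36.2, 58.8 and 74.8 scaled reads in treated and 48.4, 74.6 and 44.3 in untreated replicates, which overlapped.

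Of 22 suprabasal and cornified keratinocyte genes tested, 2 rose (9.09%, against 9.26% of all genes) and 3 fell (13.6%, against 7.23% of all genes), with a median of -0.11. Tgm3, a transglutaminase of the cornified layer and hair follicle, rose to 745 ± 185 scaled reads in treated skin, against 203 ± 14.5 in untreated skin (1.85 ± 0.16 SE, adjusted p = 8.22e-04), and Casp14 rose (0.48 ± 0.09 SE, adjusted p = 0.0101). Lor, the gene of loricrin (-0.54 ± 0.10 SE, adjusted p = 0.0113), Sbsn (-0.39 ± 0.07 SE, adjusted p = 0.0112) and Elovl4, which lengthens fatty acids of barrier lipids (-0.30 ± 0.07 SE, adjusted p = 0.0185), fell. Elovl4 was lost without treated replicate 2 (0.0649), untreated replicate 1 (0.0607) or untreated replicate 3 (0.0607), with 7.21e-04 to 0.0649 over the alternatives, and 2 falls were counted without treated replicate 2 or untreated replicate 1. The list medians were -0.02, -0.09 and -0.10 in treated replicates 1, 2 and 3, as differences from the untreated mean.

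Of 13 basal genes tested, 2 rose (15.4%) and 2 fell (15.4%), with a median of -0.06, against 9.26% and 7.23% of all genes. Cdh3 (0.50 ± 0.09 SE, adjusted p = 0.00753) and the laminin gene Lama3 (0.85 ± 0.18 SE, adjusted p = 0.0152) rose, and Krt15, a keratin of basal and follicle stem cells (-0.45 ± 0.08 SE, adjusted p = 0.00862), and Col17a1 (-0.34 ± 0.07 SE, adjusted p = 0.0132) fell. Lama3 was lost without treated replicate 1 (0.054) or 2 (0.055, with 6.64e-05 to 0.055 over the alternatives), which left 1 rise, and Col17a1 without untreated replicate 1 (0.052, with 1.33e-04 to 0.052 over the alternatives), which left 1 fall. Without treated replicate 3 there were 4 rises.

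Langerhans cells, the other immune residents of the epidermis, gave 3 falls (30%, against 7.23% of all genes) and no rise among 10 genes tested by limma (median -0.23). At an unadjusted p under 0.05, 3 were higher, edgeR, DESeq2 and the authors' deposited table called 0 higher, and limma called 1 higher without treated replicate 1 or treated replicate 3. Cd207, their defining lectin, fell to 99 ± 26.7 scaled reads in treated skin, against 258 ± 34.3 in untreated skin (-1.39 ± 0.20 SE, adjusted p = 0.00439). Il34, a keratinocyte cytokine on which they depend, fell (-0.66 ± 0.13 SE, adjusted p = 0.012, and 0.0528 without untreated replicate 1, with 4.06e-04 to 0.0528 over the alternatives). H2-Eb1, a class II gene of many antigen-presenting cells, fell (-0.31 ± 0.09 SE, adjusted p = 0.046), but not without any single library (0.0657 to 0.136, and 0.0286 to 0.136 over the alternatives). Falls numbered 1 without untreated replicate 1 and 2 without each other library in turn. The 4 Langerhans cell markers summed to between 1617 and 1695 scaled reads in treated and between 2019 and 2216 in untreated libraries. Of these markers limma called Cd207 alone. Cd74 (adjusted p = 0.058) and Epcam (0.137), the 2 with the highest values, were not called, and Ly75 overlapped between the groups (-0.02 ± 0.21 SE).

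**Figure D5:**
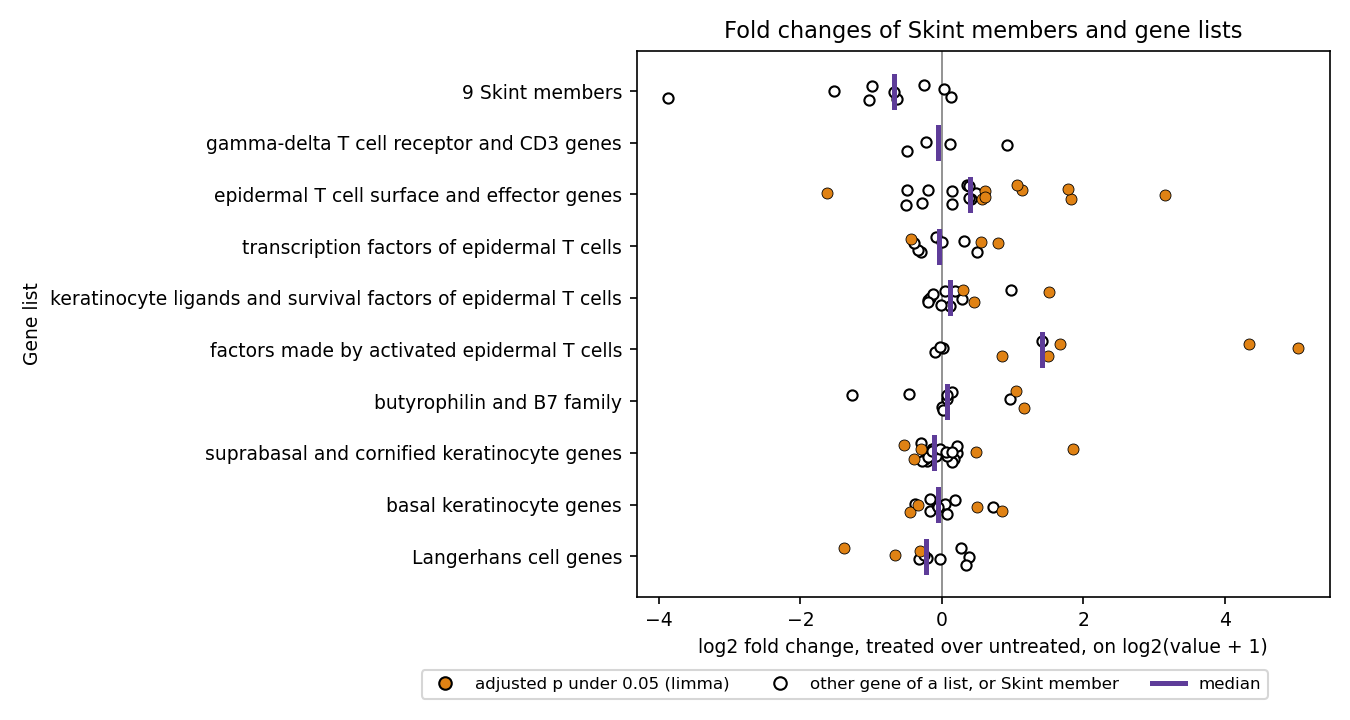
Log2 fold changes (treated over untreated, on log2(value + 1)) of the 9 Skint members and of the tested genes of each list, with medians as bars and called genes of the lists filled. The Skint members have a median of -0.68, and the list medians run from -0.23 to 1.42.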

How the data were processed

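RNA was taken from 3 treated and 3 untreated samples of whole skin, and the labels' protocols name an Illumina TruSeq Stranded mRNA preparation. STAR, DESeq2, bcl2fastq 2.20.0.422 and the mm10 build are listed in the submitters' processing notes. No source used here states the read counter, its use of strand or its filters. The deposited values are a scaled signal per gene, and the authors also deposited log2 fold changes, p-values and adjusted p-values.

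Whole reads were recovered from the steps between values, to a tolerance of 0.1 reads in 100.0% of values. Genes passing filterByExpr of edgeR 4.0.16 on recovered reads (minimum count 10, minimum total 15) went into limma 3.58.1 (R 4.3.3) on log2(value + 1), with group as the only term and a trend in the spread. Calls are at Benjamini-Hochberg adjusted p under 0.05 over 15534 genes. Precision is limited by 3 samples a group and by few reads at low levels. The members, lists and rules were chosen with earlier results of these data known.

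Text names every Skint gene, up to 3 called genes per list and direction with the smallest p, called genes within 1 Mb of the cluster, and the 6 genes nearest in profile. Others, such as Cd3e, Cd3d, Cd3g, Jaml, Ulbp1, Klrk1, Fgf7, Fgf10, Igf1, Tnf, Lif and Btnl9, were chosen after their values were seen. Promoters are from RefSeq (GRCm38.p6) and transcripts from GENCODE M21. Promoters were aligned locally (match 2, mismatch -3, gap opening -5, extension -2). The alternatives were pseudocounts of 0.5 and 5, no filter, at least 1 CPM in 3 libraries, TMM and RLE scaling, edgeR, DESeq2 1.42.0, the deposited comparison, a replicate block, leaving out each library, 4 libraries of like depth and adjusted p under 0.01. Reads estimated from filled positions were added after seeing the data. The limma test was also tested on simulated data. Figures were drawn with matplotlib 3.10.9.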

Additional observations from a re-analysis of the deposited data

How the results depend on the processing

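Over all genes, leaving out each library in turn gave 610 to 1420 higher and 529 to 1344 lower calls, and adjusted p under 0.01 left 362 higher and 288 lower. Skint members called lower numbered 5 with RLE scaling, 4 with DESeq2, 4 in the authors' deposited comparison, 7 in the 4 libraries of like depth, 0 at adjusted p under 0.01, and 1 to 6 when a library was left out. With the replicate block they numbered 5. Same-numbered samples did not deviate together (correlations of -0.085, -0.055 and 0.054) and not every sample correlated best with its own number, so the numbers are not taken to pair samples. The block gave 1096 lower calls over all genes, 1 rise among transcription factors and 1 fall in the butyrophilin and B7 family.

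For the lists, leaving out each library gave 0 to 1 rises for the receptor and CD3 genes, 1 to 7 rises for surface and effector genes, 0 to 2 rises and 0 to 1 falls for transcription factors, 0 to 2 rises for keratinocyte ligands, 3 to 6 rises for activated factors, and 1 to 2 rises and 0 to 1 falls for the butyrophilin and B7 family. It gave 2 to 3 rises and 2 to 4 falls for suprabasal genes, 1 to 4 rises and 1 to 3 falls for basal genes, and 0 to 1 rises and 1 to 2 falls for Langerhans cell genes. Surface and effector genes had 2 falls with TMM, RLE, edgeR and DESeq2. Libraries of like depth gave 1 rise and 3 falls for transcription factors, 1 rise for keratinocyte ligands, 1 fall for the butyrophilin and B7 family and 1 rise for Langerhans cell genes, a rise also counted with reads estimated from filled positions, an alternative chosen after seeing the data. Keratinocyte ligands had 7 rises with no filter and 7 with at least 1 CPM in 3 libraries, where relatives of Raet1e that may share reads were added. They had 1 rise with DESeq2, and activated factors had 8 rises in the authors' deposited comparison. At adjusted p under 0.01 the rises were 0 for surface and effector genes, 0 for transcription factors, 0 for keratinocyte ligands, 3 for activated factors and 1 each for the butyrophilin and B7, suprabasal and basal lists. The falls were then 0 for transcription factors and suprabasal genes and 1 each for basal and Langerhans cell genes. Beyond the threshold, the cause of these shifts was not tested. No direction reversed among the values that passed the test. The smallest values rest on few reads, such as 6 and 7 for Skint5 in 2 treated libraries.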
